A study of Mus musculus with 6 samples.

Results

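MYC, MYCN and the proteins that share their partner MAX were followed at the RNA level in BaF3 cells, a mouse haematopoietic line dependent on interleukin-3. The genes were chosen by symbol in the deposited tables: Myc, Mycn, Max, Mxd1, Mxd3, Mxd4, Mxi1, Mnt, Mga and Mlx, which are 10 of 18946 genes listed. All 10 were in both deposited tables and among the 11050 genes tested. The cells, which the labels describe as a pro-B line, grew in RPMI with 10% fetal bovine serum and 2 ng/mL interleukin-3, were nucleofected with a plasmid, and were collected by sorting 24 h later. Controls (con) carried pmax-Clover, which encodes a green fluorescent protein. The ICN group carried pmax-Clover-ICN, with the intracellular region of Notch1, and the CTdel group carried pmax-Clover-CTdel, a mutated ICN. The labels do not state what CTdel stands for or the species of the insert. No group carried a plasmid with an irrelevant insert, so effects of ICN and of a larger plasmid cannot be told apart. Each group had 2 libraries, replicate 1 in the first table and replicate 2 in the second. Nothing states that they came from separate cultures, so the p-values measure only the spread between these libraries.

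MYC and MYCN are basic helix-loop-helix transcription factors that bind the E-box, CACGTG, as dimers with MAX and drive genes for growth, nucleotide synthesis and ribosome production. MXD1, MXD3, MXD4, MXI1 and MNT pair with MAX at the same sites and bring SIN3 and histone deacetylases, and MGA joins MAX to a polycomb complex called PRC1.6. MLX does not bind MAX: it pairs with the glucose-responsive factors MondoA (gene Mlxip) and ChREBP (gene Mlxipl), and also with MXD1, MXD4 and MNT. Notch signalling is known to raise Myc in T-cell leukaemia, and interleukin-3 sustains Myc in cells that depend on it.

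The E-box is shown first because it is the sequence the whole network reads and because several members carry it themselves. Sequences of 250 bases before to 50 bases after a transcript start came from RefSeq (GRCm38.p6), with an entry for 9 of the 10 genes and none used for Myc. CACGTG, which reads the same on both strands, was found in 4 of the 9. For comparison, 7.15% of 32851 promoters of that length held it, and 12.03% of the 8735 tested genes with an entry. Windows of 30 bases around the matches are given 5′ to 3′ on the gene's strand, with the E-box in capitals; the listed start lies inside the annotated gene for Max, Mnt and Mlx.
Max: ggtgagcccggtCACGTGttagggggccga
Mxd4: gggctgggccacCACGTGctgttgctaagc
Mnt: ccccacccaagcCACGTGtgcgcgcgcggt
Mlx: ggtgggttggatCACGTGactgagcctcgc
The Max window, chr12:76962234-76962263 on the minus strand, spans the start, with its E-box beginning 3 bases before it. In Mxd4 (chr5:34187912-34187941, minus strand) the E-box lies 219 bases before the start, in Mnt (chr11:74830789-74830818, plus strand) 123 bases and in Mlx (chr11:101087238-101087267, plus strand) 40 bases. Mycn, Mxd1, Mxd3, Mxi1 and Mga had no CACGTG in this window.

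The upstream sequence of Mycn is printed because Mycn was the member whose change passed the test. These 250 bases before its start, chr12:12941837-12942086 on the minus strand of GRCm38.p6, hold TTTGGCGC in capitals, a form of the E2F motif.
Mycn: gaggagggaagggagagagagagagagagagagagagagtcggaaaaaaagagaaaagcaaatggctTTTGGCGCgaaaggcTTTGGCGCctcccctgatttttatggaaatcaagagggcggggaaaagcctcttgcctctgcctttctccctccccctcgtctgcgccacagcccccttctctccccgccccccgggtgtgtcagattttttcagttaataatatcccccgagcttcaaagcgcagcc
The motif begins 183 and 168 bases before the start. It was searched for on both strands after this sequence had been read, and 0.514% of the 32851 promoters hold it, or 1.21% of the 8735 tested genes with an entry. GTGGGAA, a motif of the Notch partner RBPJ, was found in 0 of the 9 genes' promoters against 6.38% of all promoters, and TTCNNNGAA, a STAT motif, in 0 of 9 against 8.30%. Those counts say only that the letters are not in these windows.

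Values are deposited FPKM, fragments per length of transcript and per library total, which allow levels of different genes to be compared per length. The sum of FPKM in a library ranged from 489693 to 507894. The depth in reads is unknown. The lowest values above 0 among short RNA genes of equal length put relative depth at 0.963 to 1.08 times that of con replicate 1. In each library but that reference, 12 or 13 of 22 lengths lay within 2% of the library's median, so this is a rough estimate. Notch1, the transfected gene, had 0.89 and 1.72 FPKM in con, 190 and 888 in ICN, and 84.9 and 25.4 in CTdel, so the ICN and CTdel groups stood apart from con as labelled, and the ICN libraries differed widely from each other. Of 12 B-lineage markers 3 reached 1 FPKM in any library: Cd79a, Cd79b and Cd72, at up to 3.15, 13.4 and 5.92 FPKM. Cd79a and Cd79b were higher in both ICN and both CTdel libraries than in both con libraries. For Cd79b the margin in ICN replicate 2 was narrow, at 4.34 FPKM against 4.32 in con replicate 2. Of all tested genes, 22.7% (ICN) and 18.3% (CTdel) lay above both con libraries in this way. The other B-lineage markers, Pax5 and Ebf1 among them, stayed below 1 FPKM wherever they were listed. Those others do not bear out the pro-B label. None of 8 T-lineage markers reached 1 FPKM, and 6 of 8 genes of haematopoietic or interleukin-3-dependent cells did. Summed myeloid markers came to 46.9 to 91.2 FPKM in con, 40.8 to 98.8 in ICN and 95.9 to 134 in CTdel. Of 8 erythroid and megakaryocyte markers, 6 reached 1 FPKM. That list summed to 295 to 762 FPKM in con, 259 to 457 in ICN and 214 to 357 in CTdel. Its largest members in con were Hba-a1 (118 and 578 FPKM) and Itga2b (148 and 109). In bulk RNA, fewer cells of a type and less RNA per cell cannot be told apart.

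In control cells Myc was the most abundant of the 10 transcripts, at 196 ± 2.53 FPKM (SD, n = 2), and it lay apart from all others. Mycn, at 68.2 ± 19.5 FPKM, and Max, at 65.4 ± 4.36 FPKM, followed and overlapped. Mxi1 (18.5 ± 5.50), Mlx (17.0 ± 0.842), Mnt (16.7 ± 1.54), Mga (13.9 ± 2.93), Mxd4 (9.90 ± 5.34) and Mxd3 (6.94 ± 3.42) came next, and each overlapped its neighbour in this order. Mxd1 was lowest in con, at 2.60 ± 0.813 FPKM, below both Mxd3 values. The order differed between groups: in ICN, Max (75.1 ± 0.205 FPKM) stood apart above Mycn (25.1 ± 8.25 FPKM), and Mxd1 moved from last place to the sixth, at 15.0 ± 8.66 FPKM. In CTdel, Mycn (19.9 ± 1.75 FPKM) overlapped Mnt (18.3 ± 0.629 FPKM), whereas Myc (182 ± 13.8 FPKM) and Max (68.1 ± 6.37 FPKM) each stood apart above them.

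**Figure D1:**
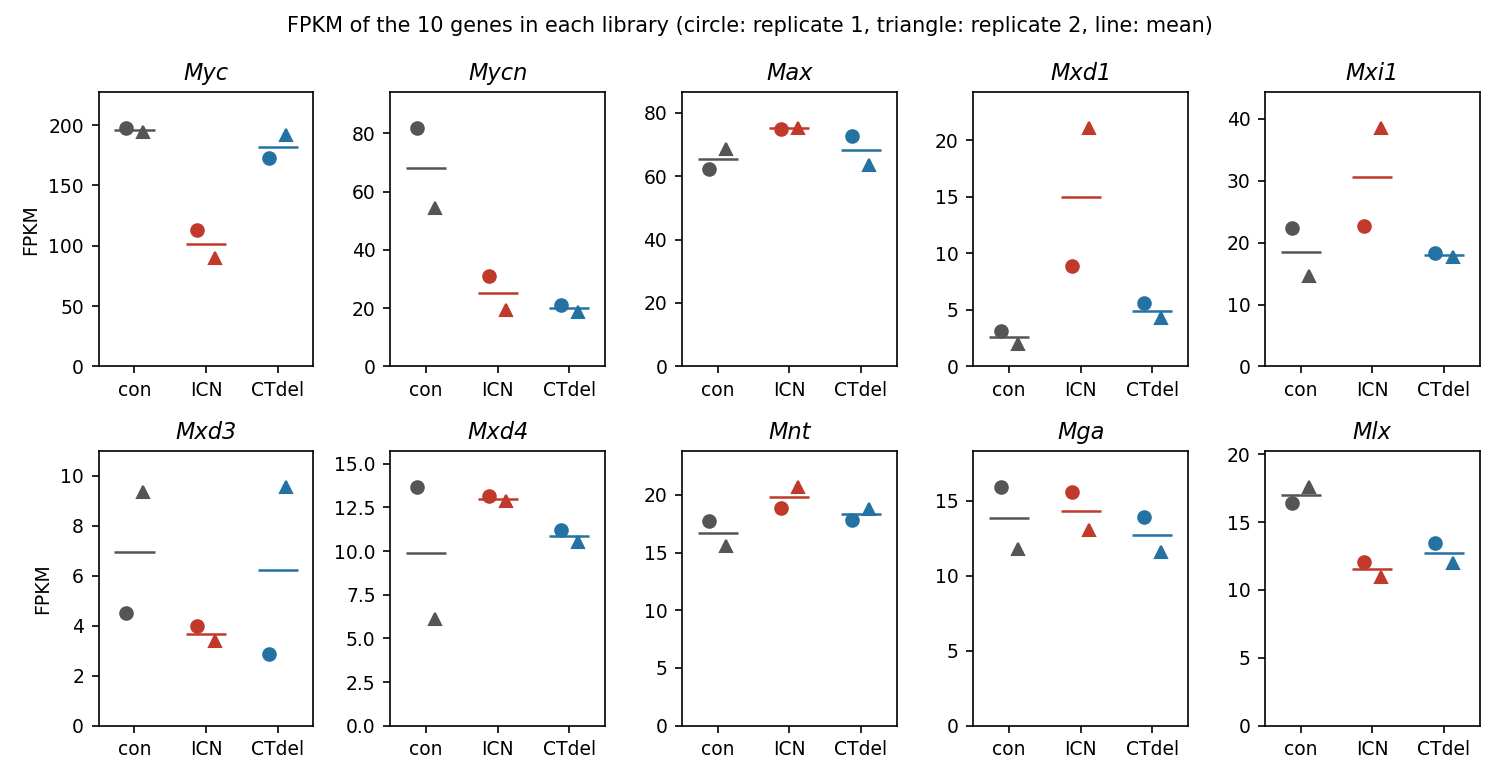
FPKM of each gene (vertical axis, from 0, scaled per panel) in the con, ICN and CTdel groups (horizontal axis); circles are replicate 1, triangles replicate 2, and lines group means. Mycn is lower in all 4 ICN and CTdel libraries than in either control, Myc is lower in ICN with CTdel close to con, and Mxd1 is highest in ICN.

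The first comparison asked how the network differed with ICN. Myc and Mycn were lower in both ICN libraries than in both con libraries, Mxd1 was higher in both, and Max differed little. None of these differences passed the adjusted test: by limma with Benjamini-Hochberg adjustment over 11050 genes, 0 of 10 members passed at an adjusted p under 0.05, and 4 (Myc, Mycn, Mxd1 and Mlx) had an unadjusted p under 0.05, as did 1663 of all 11050 genes. Only 4 genes, 0.0362% of all tested, passed in this comparison. Both ICN libraries lay below both con libraries for 4 members (19.6% of all tested genes did) and above for 4 (22.7% of all). The members' median change was 0.13 on the log2(FPKM + 1) scale, beside 0.0014 over all tested genes, and 6 of 10 changes were positive.

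Myc (Gene ID 17869, chr15:61985341-61990361) measured 198 and 194 FPKM in con, 113 and 89.9 FPKM in ICN, and 173 and 192 FPKM in CTdel. The ICN libraries held 0.571 and 0.463 times the con level of their own table, and neither overlapped con. The fitted log2 change was -0.95 (SE 0.21, 95% interval -1.48 to -0.43), with an adjusted p of 0.180 by limma. CTdel libraries were also just below con, at 0.872 and 0.989 times, with a fitted change of -0.11 (interval -0.63 to 0.42, adjusted p = 0.907 by limma).

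Mycn (Gene ID 18109, chr12:12936093-12941836), the MYC form known from early progenitors and neural tissue, measured 81.9 and 54.4 FPKM in con, 31.0 and 19.3 FPKM in ICN, and 21.2 and 18.7 FPKM in CTdel. All 4 ICN and CTdel libraries were below the lower control, and the ICN and CTdel values overlapped. Against con of the same table, ICN held 0.378 and 0.355 times the level and CTdel 0.258 and 0.343 times. The ICN change was -1.41 (SE 0.22, interval -1.95 to -0.87, adjusted p = 0.123 by limma). The genes whose changes were most like those of Mycn, by root mean square distance over the 4 changes among 10751 genes, were Hk3 (0.113 log2 units), a hexokinase; Flt3l (0.185), the FLT3 ligand; and Gata2 (0.187), a transcription factor of progenitor and mast cells. For Myc they were Mir7036 (0.141), Flna (0.164), the actin cross-linker filamin A, and Mettl9 (0.178), a methyltransferase. Gata2 also belongs to a list of 8 mast-cell and basophil markers, 3 of which reached 1 FPKM; the list summed to 199 to 265 FPKM in con, 87.9 to 117 in ICN and 64.5 to 86.9 in CTdel. Gata2 supplied most of that sum, with 238 and 192 FPKM in con, and Cpa3 was also lower in CTdel than in con in each table. The remaining marker, Hdc, was higher than its con values of 0.53 and 0.39 FPKM, at 2.92 and 7.45 in ICN and 7.48 and 1.13 in CTdel, and the part of these cells in the Mycn result was not tested.

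Max (chr12:76937269-76962323), the partner that MYC and MXD proteins compete for, measured 62.3 and 68.5 FPKM in con, 74.9 and 75.2 in ICN, and 72.7 and 63.6 in CTdel. Both ICN libraries were above both controls and CTdel overlapped con. The fitted changes were small, 0.20 in ICN (interval -0.30 to 0.70) and 0.06 in CTdel (interval -0.44 to 0.56), with adjusted limma p of 0.646 and 0.953.

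Among the repressor partners, Mxd1 (Gene ID 17119, chr6:86647044-86669234), which rises as many cell types leave the cycle and differentiate, measured 3.17 and 2.02 FPKM in con, 8.83 and 21.1 in ICN, and 5.61 and 4.24 in CTdel. The 3 groups did not overlap, with ICN highest, at 2.79 and 10.4 times con within each table. The ICN change was 2.05 (SE 0.43, interval 1.01 to 3.10), with an adjusted p of 0.169 by limma, and the CTdel change was 0.73 (interval -0.32 to 1.78, adjusted p = 0.625). Fitting con and ICN alone gave the same Mxd1 change with an adjusted p of 0.0364 by limma. Leaving out either CTdel library rests on the same con and ICN libraries and is not a separate result. Leaving out ICN replicate 1 gave a change of 2.84. Without that ICN library the changes were -1.15 for Myc, -1.55 for Mycn, -1.38 for Mxd3 and 1.2015 for Mxi1, each resting on 1 ICN library. ICN replicate 2 was the library with the higher Mxd1 and also the higher Notch1, and the part of plasmid level in this difference was not tested.

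Mxi1 (chr19:53310128-53373293), a further MXD-family repressor, measured 22.4 and 14.7 FPKM in con, 22.7 and 38.6 in ICN, and 18.3 and 17.8 in CTdel. Its ICN values were above con by a narrow margin in replicate 1 and by 2.63 times in replicate 2. The change was 0.68 (interval -0.15 to 1.503, adjusted p = 0.391 by limma). Mxd3 (chr13:55325170-55329900), the family member linked to S phase, measured 4.52 and 9.36 FPKM in con, 3.97 and 3.38 in ICN, and 2.87 and 9.54 in CTdel. In con and CTdel, Mxd3 was much higher in replicate 2 than in replicate 1, and the ICN change was -0.70 (interval -1.68 to 0.28). Mxd4 (chr5:34176580-34187710) measured 13.7 and 6.12 FPKM in con, 13.1 and 12.9 in ICN, and 11.2 and 10.6 in CTdel, so that all 4 ICN and CTdel libraries lay between the controls.

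Mnt (chr11:74830806-74845725), the broadly expressed antagonist of MYC, was nearly level at 17.8 and 15.6 FPKM in con, 18.9 and 20.7 in ICN, and 17.9 and 18.8 in CTdel. Its changes were 0.23 in ICN and 0.13 in CTdel, with adjusted limma p of 0.590 and 0.876. The Mnt values of the groups lay next to each other without overlap, lowest in con and highest in ICN. Mga (chr2:119872503-119970129) overlapped among all groups, with 15.9 and 11.8 FPKM in con, 15.6 and 13.1 in ICN, and 13.9 and 11.6 in CTdel. Mlx (chr11:101086707-101092207) measured 16.4 and 17.6 FPKM in con, 12.1 and 11.0 in ICN, and 13.4 and 12 in CTdel. ICN and CTdel both lay below con for Mlx, with changes of -0.52 in ICN (interval -1.01 to -0.03, adjusted p = 0.320 by limma) and -0.39 in CTdel (interval -0.88 to 0.10, adjusted p = 0.562).

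In GENCODE vM21, 385 of the 1999 exon bases of Mlx lie opposite Psmc3ip, which is on the other strand and measured 4.48 to 18.02 FPKM. Of the 2369 exon bases of Mxd3, 105 lie opposite Prelid1, a far more abundant transcript at 245 to 351 FPKM. Mxd4 shares 514 of 8483 exon bases with the antisense gene Gm42846, and Mxi1 shares 194 of 6823 with Gm10197. The sources do not give whether reads were counted by strand, so these 4 members are the less certain ones. Myc, Mycn, Max, Mxd1, Mnt and Mga overlap no other gene's exons there.

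The second comparison asked how the network differed with CTdel. Mycn fell by 1.70 on the log2 scale (SE 0.22, interval -2.24 to -1.16) and passed with an adjusted p of 0.0306 by limma, the 1 member of 10 to do so. In all, 156 genes passed, or 1.41% of those tested, and 12 of them were lower. Both CTdel libraries lay below both con libraries for 3 members, Myc, Mycn and Mlx (23.5% of all tested genes did), and above for 2, Mxd1 and Mnt (18.3% of all), while 5 overlapped. Of 10 myeloid markers, Itgax (4.80, adjusted p = 0.0170 by limma) and Cd68 (1.41, 0.0364) passed as higher in the same comparison. Csf1r and Itgam also lay above con, and Lyz2 and Adgre1 overlapped con. Fcgr1 lay below con, at 3.09 and 2.57 FPKM in CTdel against 19.96 and 5.61 in con. Mpo, Elane and Cd14 stayed under 1 FPKM. The part of these genes in the Mycn result was not tested. The members' median change was -0.06, equal to that of all tested genes to 2 decimals. The Mycn call was lost when either con library or either CTdel library was left out (adjusted p from 0.0639 to 0.267, changes from -1.48 to -1.92), when genes of low FPKM were kept (0.139), and when the table term, which is the replicate block, was dropped (0.0595). It held in 8 of 14 alternatives, and the change was negative in all 14. Among the 8, leaving out either ICN library and fitting con and CTdel alone rest on the same con and CTdel libraries. Those settings are therefore not separate results.

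**Figure D2:**
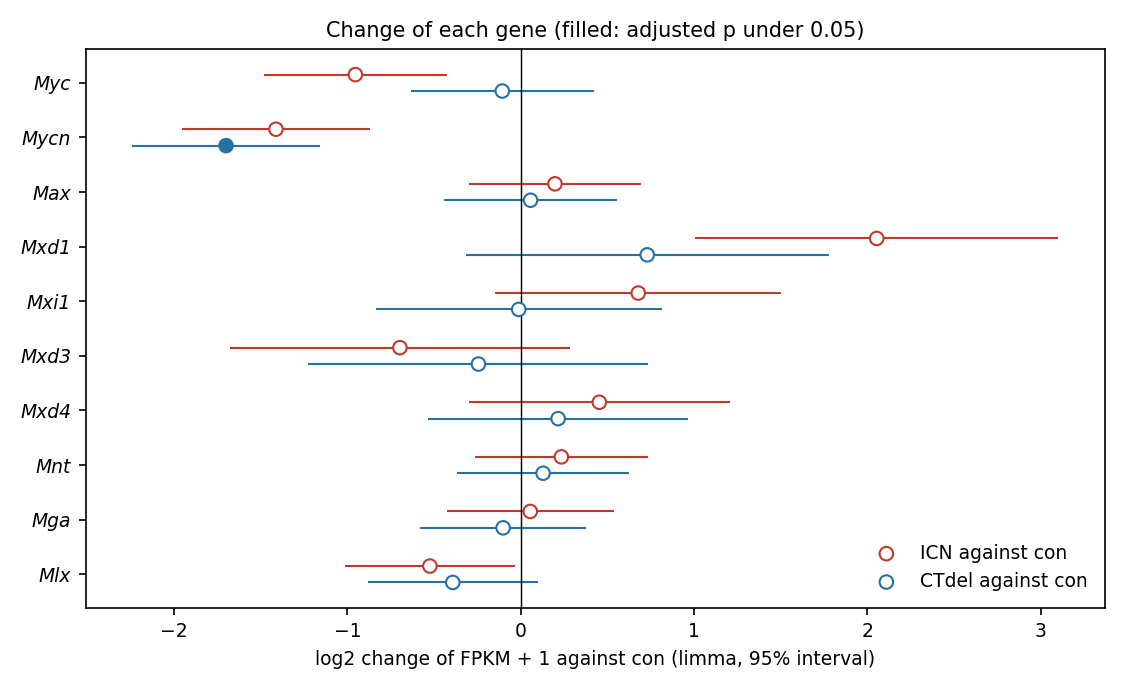
Fitted change of each gene on the log2(FPKM + 1) scale (horizontal axis) for ICN (red) and CTdel (blue) against con, with 95% intervals from limma; a filled point marks an adjusted p under 0.05. Mycn lies below 0 for ICN and CTdel and is filled for CTdel, whereas Myc lies below 0 for ICN (-0.95) and near 0 for CTdel (-0.11).

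Compared directly, the ICN and CTdel groups differed most in Mxd1 and Myc among the members, but no member passed. Notch1 RNA in CTdel was 0.447 and 0.0285 times that in ICN of the same table. In this comparison the form and the Notch1 RNA level therefore cannot be told apart. Myc was 0.85 higher in CTdel than in ICN on the log2 scale (interval 0.32 to 1.37, adjusted p = 0.568 by limma), with both CTdel libraries above both ICN libraries. Mxd1 was 1.32 lower in CTdel (log2 change -1.32, interval -2.37 to -0.28, adjusted p = 0.658 by limma). For Mycn the difference was -0.29 with an interval of -0.83 to 0.25, so a further fall or a small rise were both within its error. By limma 0 of 10 members passed and 2 had an unadjusted p under 0.05, as did 788 of all 11050 genes, in a comparison where 2 genes, 0.0181% of those tested, passed. Both CTdel libraries lay above both ICN libraries for 1 member (15.6% of all genes) and below for 5, Max, Mxd1, Mxd4, Mxi1 and Mnt (25% of all). Without ICN replicate 1, which left 1 ICN library, the changes were 1.04 for Myc, -2.11 for Mxd1 and -1.21 for Mxi1.

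Averaged over ICN and CTdel against con, Mycn fell by 1.56 (interval -2.02 to -1.09, adjusted p = 0.0336 by limma), and 1.11% of all tested genes passed. The mean change was 1.39 for Mxd1 (adjusted p = 0.177), -0.53 for Myc (0.267) and -0.46 for Mlx (0.294). Here 1 of 10 members passed and 4 had an unadjusted p under 0.05, as did 1707 of all 11050 genes. This contrast reuses the controls of the comparisons above, and its Mycn call was lost without either con library (0.0876 and 0.0823) or CTdel replicate 1 (0.0564), and when genes of low FPKM were kept (0.161). With 1 ICN library left, the mean Mxd1 change was 1.78 without ICN replicate 1 and 0.9998 without ICN replicate 2.

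The members' levels were also summed by role, as a description of RNA with no test. The MYC forms (Myc, Mycn and Mycl, which never exceeded 0.02 FPKM) came to 280 and 248.7 FPKM in con, 144 and 109 in ICN, and 194 and 211 in CTdel. The MAX-binding antagonists (Mxd1, Mxd3, Mxd4, Mxi1, Mnt and Mga) came to 77.5 and 59.5 FPKM in con, 83.1 and 110 in ICN, and 69.7 and 72.4 in CTdel. The MYC sum was lowest in ICN, where the antagonist sum was highest, and CTdel lay between con and ICN for the MYC sum.

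Per library, the MYC forms over the antagonists came to 3.61 and 4.18 in con, 1.73 and 0.996 in ICN, and 2.78 and 2.91 in CTdel. The group means were 3.89 ± 0.401, 1.36 ± 0.520 and 2.84 ± 0.0923 (SD, n = 2), with no overlap between groups. Mycn made up 29.3% and 21.9% of the MYC sum in con, 21.5% and 17.7% in ICN, and 10.9% and 8.86% in CTdel. Its share was thus lowest in CTdel, where Myc stayed near its control level. Mxd1 and Mxi1 together made up 33.0% and 28.01% of the antagonist sum in con, 38.0% and 54.4% in ICN, and 34.2% and 30.4% in CTdel.

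**Figure D3:**
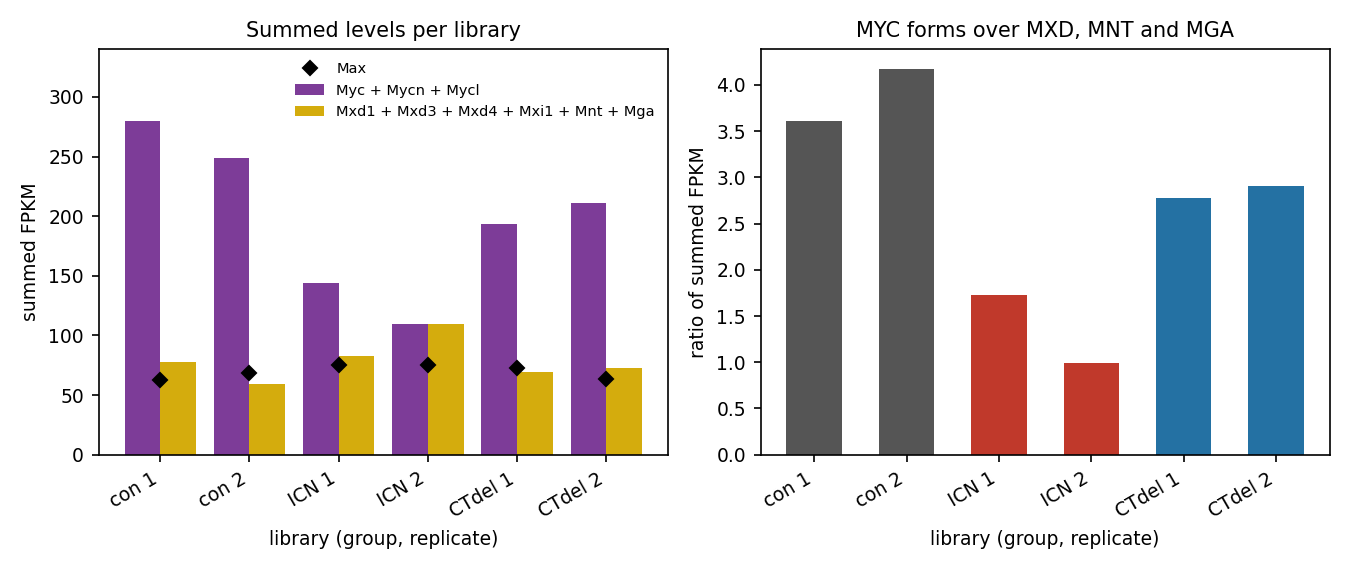
Left, summed FPKM per library (vertical axis, from 0) of the MYC forms (purple bars) and of the MXD, MNT and MGA genes (yellow bars), with Max as black diamonds; right, the ratio of the first sum to the second. The ratio is 3.61 and 4.18 in con, 1.73 and 0.996 in ICN, and 2.78 and 2.91 in CTdel, while Max stays between 62.3 and 75.2 FPKM.

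Further genes of the pathway were taken from lists chosen by their known function. Of the other relatives, Mlxip, the MondoA gene, measured 14.8 and 14.1 FPKM in con, 15.2 and 12.7 in ICN, and 16.3 and 14.5 in CTdel, and Mlxipl stayed at or below 0.10 FPKM. Mycbp, a MYC-binding protein, measured 13.8 and 17.5 FPKM in con, 14.0 and 6.64 in ICN and 11.6 and 10.5 in CTdel, and Mycbp2, a ubiquitin ligase, ranged from 15.4 to 23.4 FPKM. By limma 0 of the 3 tested passed in any comparison.

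No gene passed among 14 MYC coactivators, whose median changes were -0.16 in ICN and -0.18 in CTdel. Among those with the smallest p values were Ruvbl2 (-0.77 and -0.69) and Ruvbl1 (-0.48 and -0.59), ATPases of the TIP60 complex. Among 14 corepressors of MXD and MNT the medians were 0.02 and 0.03, and 0 passed; Arid4a had changes of 0.54 and 0.74, Arid4b 0.61 and 0.10 and Brms1 0.24 and 0.45, all 3 being SIN3 complex members. Of the 10 MGA and PRC1.6 partners, 9 had a negative change in each comparison, with medians of -0.25 and -0.29 and 0 passing, where 5506 (ICN) and 6389 (CTdel) of all 11050 genes had a negative change. For ICN the tables gave medians of 0.02 (replicate 1) and -0.49 (replicate 2), and 2 of the 10 were lower in both tables. For CTdel the medians were -0.32 in each table, and 7 of the 10 were lower in both. Of all 11050 genes, 2945 (ICN) and 3959 (CTdel) were lower in both tables. Cbx1, a heterochromatin protein, had -0.60 and -0.46, Yaf2 had -0.26 and -0.40, and its relative Rybp had -0.02 and -0.41. Among 16 tested regulators of MYC protein stability the medians were -0.19 and -0.19 with 0 passing. The kinase Plk1 had changes of -0.76 and -0.18, C330027C09Rik, which encodes the PP2A inhibitor CIP2A, -0.77 and -0.21, and the deubiquitinase Usp36 -0.50 and -0.38.

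Genes that MYC is known to induce were lower on average in ICN and CTdel, but none of the 30 passed. Their median change was -0.57 in ICN, with 30 of 30 negative, and -0.41 in CTdel, with 28 of 30 negative, beside medians over all tested genes of 0.0014 and -0.06. The replicate tables differed sharply: the ICN median of the list was -0.02 for replicate 1 against -1.06 for replicate 2. For CTdel it was -0.07 against -0.66. The controls differed too: con replicate 2 was above con replicate 1 for all list genes but Npm1, Ccnd2, Eif4e and Slc7a5. Srm, named after its values were seen, measured 103 and 268 FPKM in con, 90.6 and 58.7 in ICN, and 91.1 and 106 in CTdel. The list medians per table therefore also hold the difference between the controls. In ICN 16 of the 30 genes were lower in both tables, and in CTdel 19 were. Of all 11050 tested genes, 2945 (ICN) and 3959 (CTdel) were. Slc7a5, an amino-acid transporter, measured 183 and 156 FPKM in con, 74.7 and 83.3 in ICN, and 91.5 and 107 in CTdel. Shmt2, of mitochondrial one-carbon metabolism, measured 222 and 234 FPKM in con, 119 and 110 in ICN, and 170 and 170 in CTdel. Both genes were lower in every ICN and CTdel library than in con, with ICN changes of -1.09 and -0.98 and adjusted limma p of 0.163 and 0.159. Cdk4, the cyclin D kinase, had changes of -0.75 in ICN and -0.49 in CTdel. Set against ICN, 27 of the 30 genes had a positive fitted change in CTdel, with a median of 0.19. The tables gave -0.06 (replicate 1) and 0.42 (replicate 2), and 10 genes were higher in both tables. Of all 11050 tested genes, 5008 had a positive change and 2656 were higher in both tables. CACGTG was present in 8 of the 24 list genes with a promoter entry, or 33.3%, beside the 12.03% of tested genes given above.

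Of 15 genes listed as repressed by MYC, 12 were tested. Their median was 0.90 in ICN, yet -0.16 in replicate 1 and 1.27 in replicate 2, and -0.05 in CTdel. All tested genes of this list but Cdkn2c, Gadd45b and Cebpd were lower in con replicate 2 than in con replicate 1. Ddit3, named after its values were seen, measured 124 and 21.5 FPKM in con, 89.7 and 242 in ICN, and 48.5 and 20.7 in CTdel. The single gene to pass was Id2, an inhibitor of basic helix-loop-helix factors, which was called higher in CTdel (log2 change 3.54, adjusted p = 0.0196 by limma). Whether MYC or MYCN lowers or raises Id2 in these cells was not tested, so its place in this list is uncertain. Id2 measured 25.2 and 10.6 FPKM in con, 68.0 and 19.0 in ICN and 245 and 167 in CTdel, so the ICN and con values overlapped and CTdel lay far above. Cdkn1a, the p21 cell-cycle inhibitor, measured 188 and 131 FPKM in con, 254 and 820 in ICN, and 187 and 106 in CTdel; it was named after its values were seen. Of the 6 tested targets of MondoA and MLX, 0 passed, with 3 positive and 3 negative ICN changes. Arrdc3, Txnip and Klf10 had ICN changes of 1.84, 1.79 and 1.76 beside 0.53, 0.26 and -0.12 in CTdel. Acaca, Fasn and Tkfc, the first and second of which encode enzymes of fatty acid synthesis, had ICN changes of -0.74, -0.68 and -0.63 beside -0.38, -0.09 and -0.39 in CTdel, and were named after their values were seen. Txnip, which restrains glucose uptake, measured 145 and 89.6 FPKM in con, 245 and 637 in ICN and 146 and 128 in CTdel.

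**Figure D4:**
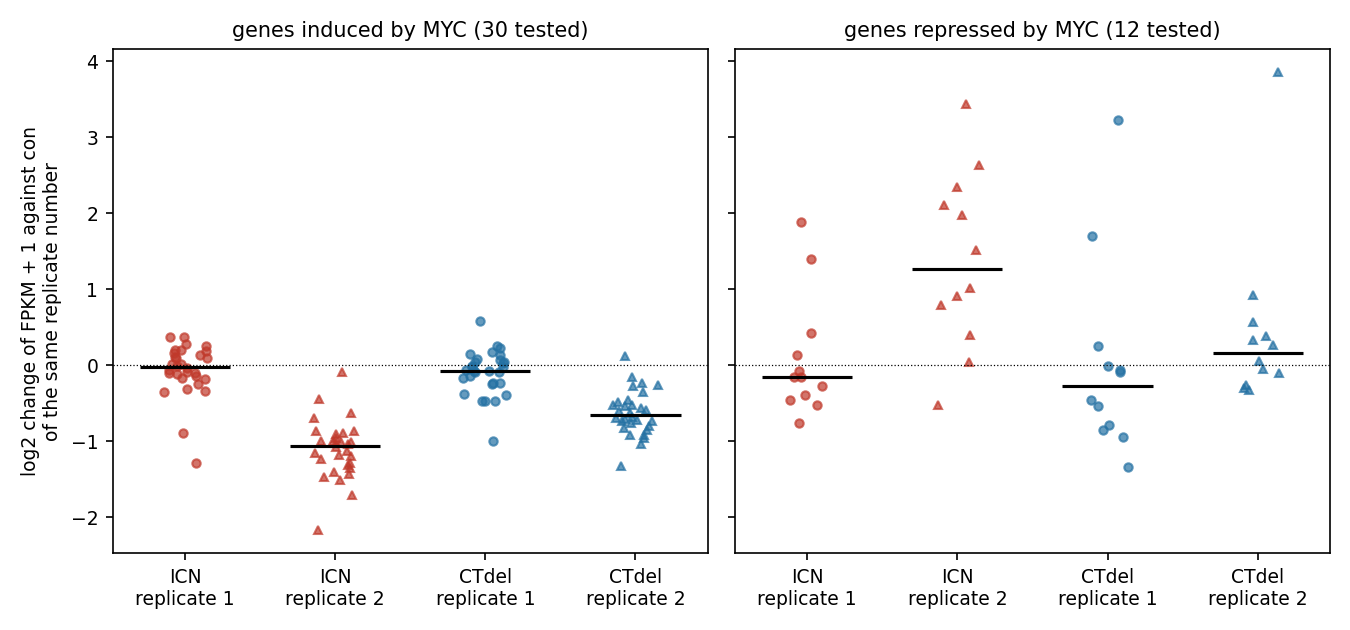
Change against the con library of the same replicate number on the log2(FPKM + 1) scale (vertical axis). The left panel holds 30 genes induced by MYC and the right panel 12 listed as repressed by MYC. There is 1 point per gene and a line at the median of each library. For induced genes the ICN median is -0.02 in replicate 1 and -1.06 in replicate 2, and for CTdel -0.07 and -0.66.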

How the data were processed

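Per the labels' protocols, RNA of 6 libraries was prepared with an MGIEasy mRNA kit. Bowtie2, HISAT2 and RSEM are named in the submitters' processing notes beside mm10 and hg19, and versions and roles are not. The authors deposited FPKM per gene in 1 table per replicate number, per the file headers, and 16799 genes were in both. A total of 26 symbols stored as dates were restored from Gene IDs. Coordinates are from RefSeq GRCm38.

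Values were tested as log2(FPKM + 1), a scale that understates changes of low genes, with limma 3.58.1 in R 4.3.3: intensity trend, 3 groups and the table as terms, 2-sided, 2 residual degrees of freedom, for genes that reached an FPKM of 1 in 2 or more libraries. The code was tested on simulated data. FPKM keep no read totals, so no counting interval was given.

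The members and lists were chosen with earlier results of these data known. Named were all members, list genes that passed or the 3 with the smallest p, all further family genes, 3 genes most like Myc and Mycn, Notch1, and marker genes; some list genes are not reported here. Alternatives covered the table term, pseudocount, filter, scaling, trend, groups fitted and each library left out.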

Additional observations from a re-analysis of the deposited data

How the results depend on the processing

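Over the alternatives, 509 of 550 member values kept direction and side of the threshold, 13 newly passed, 10 no longer passed and 18, of 7 members, reversed. Keeping all genes left 0 called in every comparison (limma; 2328, 1592, 1386 and 2098 genes at unadjusted p under 0.05 for ICN, CTdel, CTdel against ICN and both forms). Fitting only the groups compared called 162 genes in ICN and 730 in CTdel. For CTdel against ICN, a pseudocount of 0.1 called 0 (limma) and FPKM of at least 5 called 1. Leaving out 1 library at a time called 11 to 1470 genes in ICN, 109 to 731 in CTdel, 2 to 891 in CTdel against ICN and 48 to 1240 for both forms; the highest count in ICN, in CTdel against ICN and for both forms was without ICN replicate 1. A group left with 1 library is assumed to vary like the others. Replicate differences correlated at -0.099 (con and ICN), 0.33 (con and CTdel) and 0.24 (ICN and CTdel) across genes. These mixed values do not settle whether the replicate numbers pair the samples. With no replicate block 3, 130, 2 and 132 genes were called and Mycn in CTdel had an adjusted p of 0.0595. Reversed member changes varied in size. Mga in ICN was -0.001 under quantile normalization, whereas Mxi1 in CTdel reached 0.45 with a library left out, beside -0.01 in the main fit. With libraries left out, in ICN Mxd4 ran from -0.041 to 0.95 and Mga from -0.027 to 0.14. In CTdel, Myc ran from -0.27 to 0.059, Max from -0.072 to 0.19, Mxd3 from -0.79 to 0.30, Mxd4 from -0.28 to 0.71, Mxi1 from -0.48 to 0.45 and Mnt from -0.0077 to 0.27. In CTdel against ICN, Mxd3 ran from -0.23 to 1.13 and Mxd4 from -0.50 to 0.029. For both forms, Mxd4 ran from -0.16 to 0.83, Mxi1 from -0.13 to 0.80 and Mga from -0.11 to 0.059. The cause of these shifts was not tested.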
